A study of Homo sapiens with 6 samples.

Results

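The genes described here are those of the nuclear pore complex and of the karyopherins, the transport receptors that carry cargo through it, together with the regulators of the small GTPase Ran. They were taken by gene name from the protein-coding rows of the deposited count table: the NUP, KPNA, KPNB, IPO, XPO and TNPO series, and 13 further genes given by symbol. This gave 60 genes of 22481 in the table, of which 16114 are protein-coding. Low counts left 2 of the 60 untested, KPNA7 and NUP210L, so 58 of 15387 tested genes belong to the set. The rule reads names and no measured value.

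RNA was sequenced from 143B, an established human osteosarcoma line, in 6 wells of a single plate. The control group is 3 wells chosen at random after a first day of growth (24 h) and kept for another 24 h. The celastrol group is the other 3 wells, which received celastrol, a plant triterpenoid, for that second period. Neither a dose nor a vehicle for the control wells is given in the labels, so what the controls received beyond medium is unknown here. All 6 wells hold the same line with no genetic change named, and all come from 1 plate, so p-values measure the spread between wells, which may be technical.

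Of 8 mesenchymal markers, 6 were tested. VIM was abundant and fell with celastrol, from 3410 ± 142 to 2540 ± 44.7 CPM (SD, n = 3; log2 fold change -0.42 ± 0.048, adjusted p = 1.48e-06). CD44 (658 ± 26.3 to 730.3 ± 5.96 CPM, adjusted p = 0.0227), COL1A1 (8.28 ± 1.59 to 13.1 ± 1.78 CPM, adjusted p = 0.00209) and COL5A2 (114 ± 9.85 to 146 ± 14.5 CPM, adjusted p = 0.00106) rose, SPARC and FN1 were not called, and COL1A2 was at or near 0. Of 6 osteoblast markers, 3 were tested: RUNX2 (-0.90 ± 0.10, adjusted p = 1.15e-06) and ALPL (-1.18 ± 0.29, adjusted p = 0.00279) were lower with celastrol on the log2 scale and SPP1 was not called, while SP7 and BGLAP were at or near 0. The epithelial marker EPCAM was expressed at 6.04 ± 0.406 CPM in controls and 6.88 ± 0.235 CPM with celastrol (adjusted p = 0.342), whereas CDH1 and KRT19 were at or near 0. Of the leukocyte markers CD14 was tested, at 0.122 ± 0.122 and 0.411 ± 0.215 CPM (1.73 ± 0.77 on the log2 scale, adjusted p = 0.0723), and PTPRC and LCP2 were too low, as were the endothelial markers PECAM1, CDH5 and VWF. What part these shifts have in the results below was not tested. THY1 and IBSP were not analysed here.

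A nuclear pore is a channel built from many copies of each nucleoporin. Outer Y-shaped complexes and an inner ring form its scaffold, membrane proteins anchor it in the nuclear envelope, and nucleoporins rich in phenylalanine-glycine repeats fill the channel and extend as cytoplasmic filaments and a nuclear basket. Importins bind cargo in the cytoplasm and release it in the nucleus when RanGTP binds them. Exportins bind cargo together with RanGTP and release it when the GTP is hydrolysed. The chromatin-bound exchange factor RCC1 makes RanGTP in the nucleus, and RANGAP1 with RANBP1 and RANBP2 ends it on the cytoplasmic side. XPO1, the main export receptor for proteins, is a drug target in several cancers. Celastrol itself is best known as an inducer of heat shock and other proteotoxic stress responses.

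The libraries were alike in depth, with 38408143 to 39453778 counts each and 18778 to 18948 genes detected. A gene listed at 0 could by counting error alone stand for up to 3 counts, or 0.0760 to 0.0781 CPM, the unit that scales counts to the library total. The first principal component of log2 CPM took up 73.1% of the variance and parted the groups, with the celastrol wells between -35.1 and -28.1 and the control wells between 23.4 and 38.8. A change was called where edgeR's quasi-likelihood test gave an adjusted p under 0.05 over all genes. By that rule 23.6% of all tested genes were higher and 24.8% were lower with celastrol, so a call alone is common in these data. Counts given below for single roles and lists stand beside these same shares. The shares are not matched to them for abundance, and no role or list was tested as a set.

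Of the 58 tested pore and transport genes, 26 rose with celastrol, 2 fell and 30 were not called. The 26 are 44.8% of the set, against a background of 23.6% for all genes, and the 2 that fell, NUP210 and NUP93, are 3.45% against 24.8%. The changes were small. The log2 fold changes ran from -0.30 to 0.59 with a median of 0.16, where the median of all genes was -0.00024, and the median absolute value was 0.17 against 0.33 for all genes. The genes behind these medians were not matched for abundance. None of the called genes changed by 2-fold or more, while 1436 genes of the table did, which is 19.3% of all called genes. NDC1 was the only one called at 1.5-fold or more, and 13 were called at 1.25-fold or more. Values of the 3 celastrol wells all lay above the 3 control wells in 28 of the 58 genes and all below in 5, against 28.4% and 28.6% of all genes. Scaling by library size alone, which moves the median of all genes up by 0.041, gave 30 higher and 2 lower against backgrounds of 27.1% and 22.0%. In a bulk culture a change in CPM is a change in the share of RNA, and fewer cells or less RNA per cell cannot be told apart in it.

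**Figure D1:**
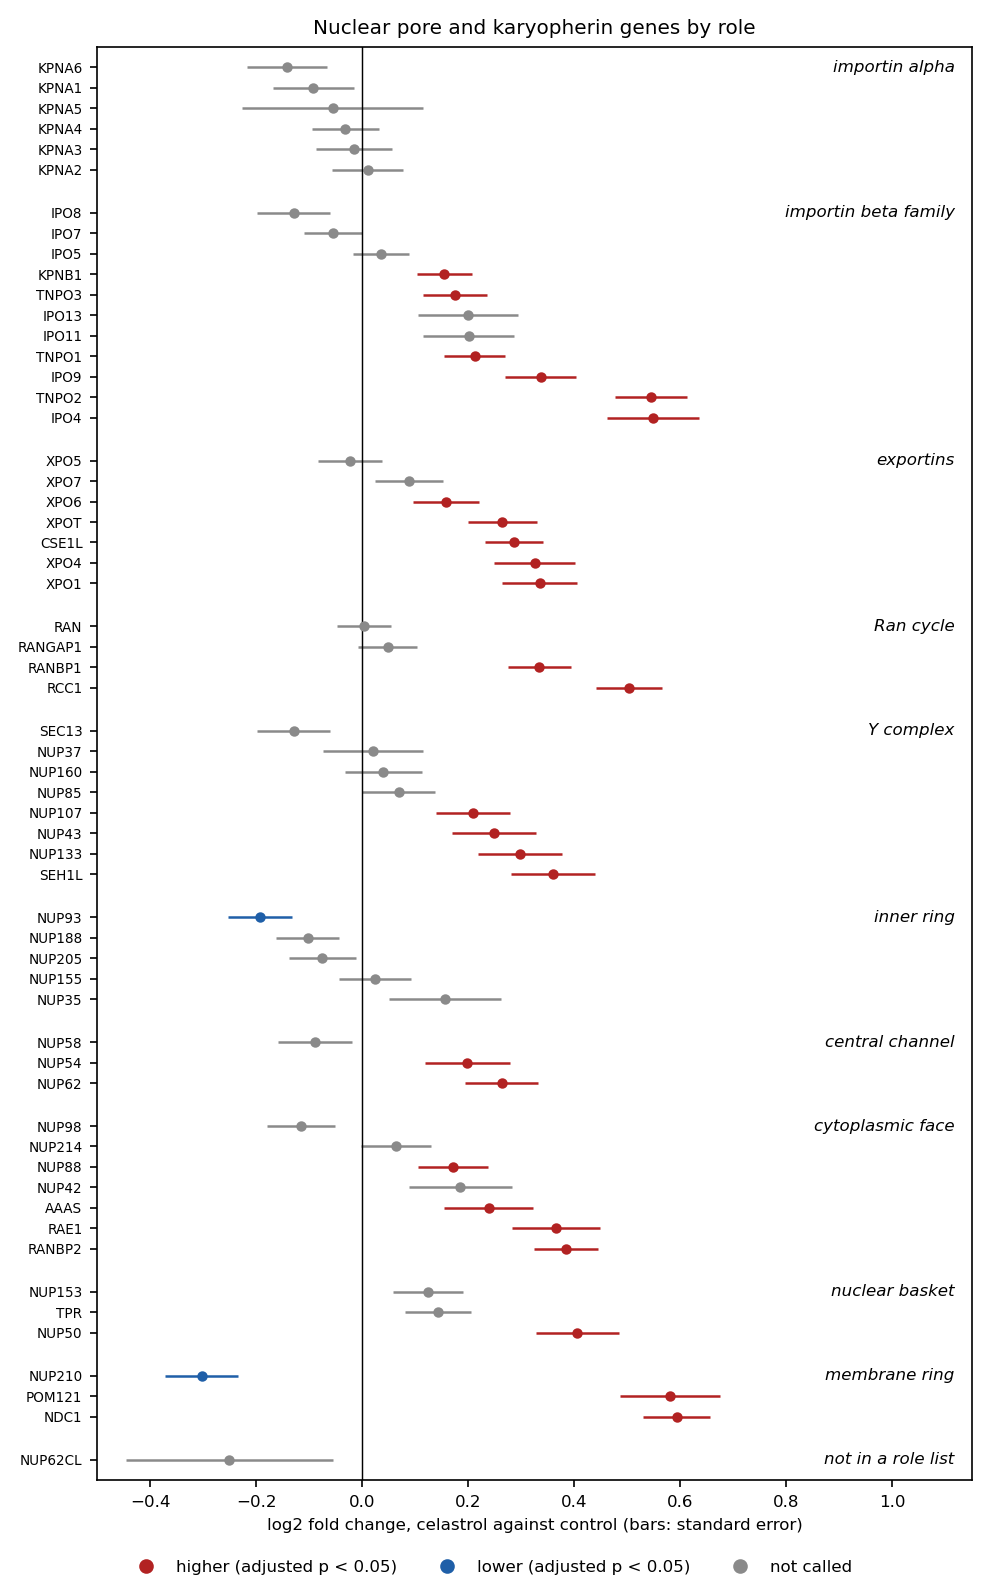
Log2 fold change, celastrol against control, of the 58 tested genes grouped by role; points are estimates and bars standard errors, coloured by call. The called genes lie between -0.30 and 0.59, the 6 importin alpha genes are uncalled, and the membrane ring holds both the highest and the lowest value.

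Summed over the set, these genes took 0.879, 0.891 and 0.888% of all counts in the control wells and 0.981, 0.984 and 0.982% in the celastrol wells. After scaling by TMM, the sums were 8876, 9003 and 9084 CPM in controls and 9630, 9680 and 9738 CPM with celastrol. The pore subunits alone summed to 3125, 3242 and 3215 CPM against 3392, 3397 and 3423 CPM, and the karyopherins to 4289, 4312 and 4366 CPM against 4673, 4731 and 4730 CPM. In each of these sums the celastrol wells lay above every control well. These sums are descriptions with no test, and the abundant genes weigh most in them. Over the 26 genes that rose, the median log2 deviation from the control mean was 0.32, 0.32 and 0.30 in the celastrol wells and 0.047, -0.017 and -0.024 in the control wells. These genes were chosen for that difference, so the medians are a description. Control well 1 was the highest control in 17 of the 26.

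**Figure D2:**
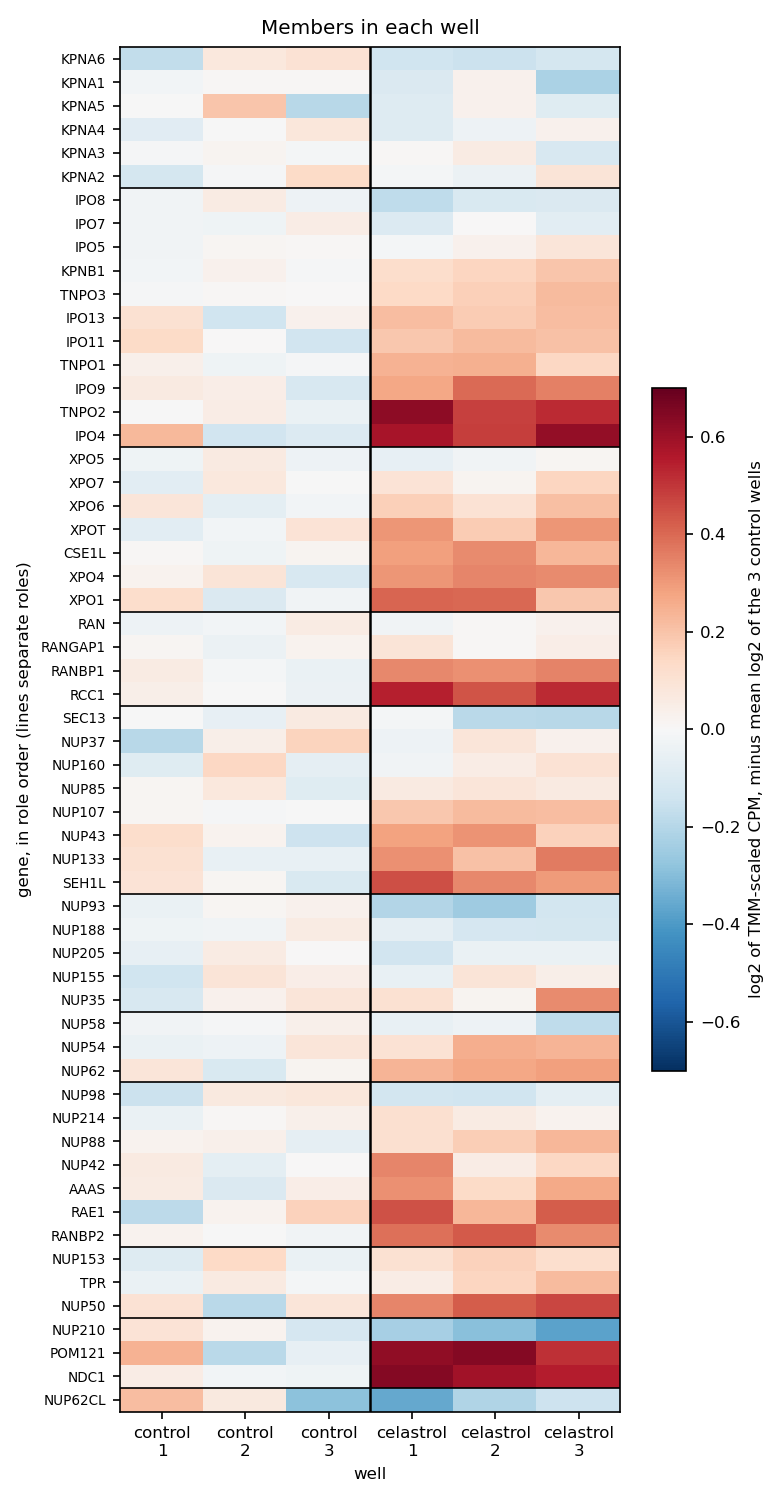
Log2 of TMM-scaled CPM in each well minus the mean log2 of the 3 control wells, as colour, for the 58 tested genes in role order; columns are the 6 wells and lines separate roles. NDC1, POM121, IPO4, TNPO2 and RCC1 are darkest red in all celastrol wells, NUP210 is blue there, and the importin alpha rows at the top show no common colour.

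Promoter letters were read for the genes that rose together. RefSeq (GRCh38.p14) gave 300 bases, from 250 before to 50 after the start, for 53 of the 60 genes. On both strands, 7 motifs were searched, and an overlap of motifs was allowed. The ETS letters CCGGAAG were in 11 of 23 promoters of genes that rose (47.8%) and in 6 of 27 of tested genes not called (22.2%), against 18.6% of the 10929 promoters of tested protein-coding genes. The E-box CACGTG was in 3 of 23 (13.0%) and 4 of 27 (14.8%) against 10.1%, and CCAAT, the letters of NFY sites, in 9 of 23 (39.1%) and 12 of 27 (44.4%) against 36.3%. The heat shock letters GAANNTTC were in 1 of 23 (4.35%) and 1 of 27 (3.70%) against 4.53%, and the antioxidant letters TGACNNNGC in 6 of 23 (26.1%) and 6 of 27 (22.2%) against 14.9%. The E2F letters TTTGGCGC or TTTCCCGC were in 0 of 23 and 1 of 27 against 3.77%, and TGATGCAA, an element bound by CHOP and ATF4, in 0 of 23 and 1 of 27 against 0.485%. These shares are descriptions with no test, and a match is not a bound site. The 200 bases before the start are shown for the 4 genes with the largest rise among those with ETS letters there, leaving out RCC1 whose start overlaps SNHG3, and then for NDC1 and NUP210, the largest rise and fall of the set. Each is written 5′ to 3′ on the gene's strand, and capitals mark the ETS letters or their reverse complement.
POM121: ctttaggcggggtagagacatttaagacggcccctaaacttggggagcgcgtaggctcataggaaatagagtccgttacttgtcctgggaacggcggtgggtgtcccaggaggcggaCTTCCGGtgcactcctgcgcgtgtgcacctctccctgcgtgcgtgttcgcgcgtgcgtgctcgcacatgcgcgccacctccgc
IPO4: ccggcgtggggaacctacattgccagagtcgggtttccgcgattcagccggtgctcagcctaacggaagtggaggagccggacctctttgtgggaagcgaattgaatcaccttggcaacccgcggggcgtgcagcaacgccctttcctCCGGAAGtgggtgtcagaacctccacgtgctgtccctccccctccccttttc
NUP50: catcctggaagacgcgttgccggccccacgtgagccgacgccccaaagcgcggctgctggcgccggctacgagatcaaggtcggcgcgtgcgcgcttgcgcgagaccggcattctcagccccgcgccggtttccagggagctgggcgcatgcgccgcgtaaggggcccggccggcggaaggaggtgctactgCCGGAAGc
SEH1L: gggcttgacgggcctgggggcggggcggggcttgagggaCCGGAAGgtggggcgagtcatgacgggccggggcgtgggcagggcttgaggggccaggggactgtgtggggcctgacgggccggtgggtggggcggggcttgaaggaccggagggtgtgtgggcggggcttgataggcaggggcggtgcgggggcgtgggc
NDC1: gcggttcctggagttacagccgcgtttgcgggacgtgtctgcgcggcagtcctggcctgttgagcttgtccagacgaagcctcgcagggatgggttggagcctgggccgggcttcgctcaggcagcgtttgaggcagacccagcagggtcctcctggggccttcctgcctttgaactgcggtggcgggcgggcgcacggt
NUP210: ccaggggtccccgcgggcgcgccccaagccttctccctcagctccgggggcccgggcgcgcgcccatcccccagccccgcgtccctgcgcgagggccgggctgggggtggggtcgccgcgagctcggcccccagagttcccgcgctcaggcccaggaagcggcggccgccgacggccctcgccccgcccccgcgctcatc
In POM121 (chr7:72879157-72879356, plus strand) the match began 83 bases before the start, in IPO4 (chr14:24188817-24189016, minus strand) 52, in NUP50 (chr22:45163725-45163924, plus strand) 8 and in SEH1L (chr18:12947811-12948010, plus strand) 161. The windows of NDC1 (chr1:53838297-53838496, minus strand) and NUP210 (chr3:13420323-13420522, minus strand) held none of these letters.

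The membrane ring, which holds the pore in the envelope, had the widest spread of any role. NDC1 (chr1:53765478-53838296, GRCh38.p14) encodes a transmembrane nucleoporin needed for pore assembly. It was measured at 100.2, 95.2 and 94.5 CPM in the control wells and at 151, 145 and 142 CPM with celastrol. Every celastrol well stood well above every control well, and the log2 fold change was 0.59 ± 0.063 (1.51-fold, adjusted p = 6.73e-07). POM121 (chr7:72879357-72951459), a membrane nucleoporin that acts early in pore assembly, gave 61.0, 45.2 and 49.6 CPM against 79.3, 80.5 and 73.3 CPM, a log2 fold change of 0.58 ± 0.094 (adjusted p = 7.62e-05). Control well 1 was the highest of its controls, but still below all celastrol wells. POM121 has a near-identical copy, POM121C, which rose to a like extent, from 53.9 ± 4.98 to 75.8 ± 1.56 CPM (SD, n = 3; log2 fold change 0.49 ± 0.08, adjusted p = 5.3e-05), and the sources used here do not say how reads common to the copies were assigned. POM121 also shares 18.9% of its exon bases with the opposite strand, where the pseudogene NSUN5P2 and an antisense gene lie. NUP210 (chr3:13316235-13420322), a large glycoprotein of the lumenal ring that is expressed in some tissues and not others, moved the other way. It fell from 169, 161 and 146 CPM to 135, 129 and 122 CPM, a log2 fold change of -0.30 ± 0.069 (adjusted p = 0.00137), with no overlap between groups. Its paralog NUP210L stayed at 0 to 0.253 CPM in all wells and was not tested.

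Of the 8 genes listed here for the Y complex, the outer scaffold, 4 were higher: SEH1L, NUP133, NUP43 and NUP107. The other 4 were not called, and the median log2 fold change was 0.14. Among all tested genes 23.6% were called higher. The list need not hold every gene of the complex, and NUP98 was counted with the cytoplasmic face. SEH1L, which also serves in the GATOR complex of nutrient signalling, was at 52.9, 50.0 and 46.0 CPM in control wells and 67.7, 62.5 and 61.0 CPM with celastrol (log2 fold change 0.36 ± 0.079, adjusted p = 0.00111). NUP133, which joins one Y complex to the next, was at 52.8, 47.4 and 47.3 CPM and 61.4, 56.7 and 63.1 CPM (0.30 ± 0.079 on the log2 scale, adjusted p = 0.00485). For both genes the lowest celastrol well exceeded the highest control well. NUP43, a small beta-propeller subunit, went from 75.2, 70.2 and 62.5 to 83.9, 86.0 and 77.2 CPM (log2 fold change 0.25 ± 0.079, adjusted p = 0.0139), and the gap between its groups was narrow. The NUP43 call was lost without celastrol well 1 (adjusted p = 0.0581), celastrol well 2 (0.0582) or control well 3 (0.0798). NUP107 was tight within groups, at 61.4, 60.3 and 60.5 CPM against 69.3, 70.8 and 70.6 CPM, but at a log2 fold change of 0.21 ± 0.069 (adjusted p = 0.0178) its call was lost without celastrol well 1 (0.0538), 2 (0.0501) or 3 (0.0671) or control well 2 (0.0519). Among the uncalled members, SEC13, which also coats vesicles leaving the endoplasmic reticulum, had a log2 fold change of -0.13 ± 0.069 (adjusted p = 0.132), NUP85 0.069 ± 0.069, NUP160 0.040 ± 0.072 and NUP37 0.020 ± 0.094. The 8 listed subunits therefore ran from -0.13 to 0.36, and differences between them were not tested.

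In the inner ring, 1 of 5 members fell and 4 were not called, with a median log2 fold change of -0.075. Among all tested genes 23.6% were called higher and 24.8% lower, and so few members cannot show a departure from those shares. NUP93 (chr16:56730129-56850286), which ties the inner ring to the channel, was at 184, 192 and 194 CPM in controls and 165, 160.4 and 174 CPM with celastrol. Its groups did not overlap, and the log2 fold change was -0.19 ± 0.061 (adjusted p = 0.0133). The call was lost without celastrol well 1 (adjusted p = 0.0581) or 2 (0.0612), and on log2(FPKM + 1) (0.0551) or log2(FPKM + 0.1) (0.0567) in limma, FPKM being the authors' depth-scaled value per gene length. NUP188 also had all celastrol wells below the controls, at 187, 187 and 198 CPM against 182, 176 and 175 CPM, but missed the threshold (-0.10 ± 0.059, adjusted p = 0.162). The other members, NUP205, NUP155 and NUP35, had log2 fold changes of -0.075 ± 0.063, 0.024 ± 0.068 and 0.16 ± 0.10 and overlapping wells. The counts were also 0 higher and 1 lower at an unadjusted p under 0.05 in edgeR, in DESeq2 and in limma-voom, all on the same wells.

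In the central channel, whose 3 nucleoporins contribute to the permeability barrier, 2 rose, against 23.6% of all tested genes called higher. NUP62 (chr19:49906825-49929504) was at 91.0, 79.6 and 87.0 CPM in controls and 101, 104 and 104 CPM with celastrol, with a log2 fold change of 0.26 ± 0.069 (adjusted p = 0.00412). Its exons share 10.4% of their bases with ATF5 on the opposite strand in GENCODE v29, and ATF5, a stress-response transcription factor, rose from 9.53 ± 1.11 to 37.4 ± 6.79 CPM (SD, n = 3; log2 fold change 1.97 ± 0.14, adjusted p = 8.58e-09). The libraries mark the strand, but the sources used here do not say whether counting used it, so the part of ATF5 reads in the NUP62 change was not tested. A further 12% of NUP62 exon bases are shared with AC011452.1 and IL4I1 on its own strand. NUP54 was at 45.2, 45.5 and 49.6 CPM against 50.1, 55.8 and 55.2 CPM and lay just inside the threshold (0.20 ± 0.080, adjusted p = 0.049). It lost its call in 7 of 16 alternatives, including each of celastrol well 2 (0.152), celastrol well 3 (0.165), control well 1 (0.0771) and control well 2 (0.136) left out. NUP58, the third subunit, had its celastrol wells below all controls at 79.0, 79.8 and 82.3 CPM against 77.5, 78.3 and 71.0 CPM without passing the test (-0.089 ± 0.069, adjusted p = 0.307).

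On the cytoplasmic face and among the mRNA export nucleoporins, 4 of 7 rose and 3 were not called (median 0.19). The share called higher among all tested genes was 23.6%. RANBP2, the giant filament protein that carries Ran-binding domains and SUMO ligase activity, was at 138, 136 and 134 CPM in control wells and 178, 183 and 171 CPM with celastrol, a log2 fold change of 0.38 ± 0.060 (adjusted p = 4.44e-05). Spread within each group was far smaller than the gap between them. RAE1, an mRNA export factor that binds NUP98, was at 99.4, 115 and 126 CPM against 154, 133 and 152 CPM (0.36 ± 0.083, adjusted p = 0.00158). Its wells were more scattered, with the lowest celastrol well just above the highest control. AAAS, the gene mutated in triple A syndrome, was at 43.2, 38.7 and 42.9 CPM and 51.9, 45.5 and 49.9 CPM (0.24 ± 0.084, adjusted p = 0.0257), and its call was lost without celastrol well 1 (0.137), celastrol well 3 (0.0897) or control well 2 (0.117). NUP88, partner of NUP214, was called at 0.17 ± 0.066 (adjusted p = 0.0375) but lost the call in 7 of 16 alternatives, among them celastrol well 1 (0.0541), 2 (0.0773) or 3 (0.174) and control well 2 (0.059) or 3 (0.118) left out. It shares 18.7% of its exon bases with RPAIN and RABEP1 on the opposite strand. NUP98 was the most abundant of this group by CPM at 332, 386 and 389.6 in controls and 337, 334 and 351 with celastrol. Its wells overlapped (-0.12 ± 0.064, adjusted p = 0.143), with control well 1 the lowest of all. Without that well NUP98 was lower with celastrol (log2 fold change -0.19, adjusted p = 0.00532). NUP214 (0.064 ± 0.066) and NUP42 (0.18 ± 0.10) were not called, though NUP42 was called in 1 of 16 alternatives.

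The nuclear basket had 1 of 3 members higher, against 23.6% of all tested genes. NUP50 (chr22:45163925-45188017), a mobile nucleoporin that helps release importin alpha from its cargo, was at 84.9, 69.4 and 84.0 CPM in controls and 100.2, 106 and 109 CPM with celastrol (0.41 ± 0.079, adjusted p = 0.000376). Control well 2 was the lowest, and all celastrol wells were above all controls. TPR, the main filament of the basket, was at 212, 228 and 216 CPM against 226, 243 and 255 CPM with a slight overlap, and narrowly missed the threshold (0.14 ± 0.062, adjusted p = 0.0651). It passed on library size alone (0.0187), on log2(FPKM + 1) (0.0403) and on log2(FPKM + 0.1) (0.0398). NUP153, the anchor of the basket, had a log2 fold change of 0.12 ± 0.066 (adjusted p = 0.13), which passed without control well 2 (0.031) and on library size alone (0.0472).

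Among the karyopherins, 11 of 24 tested genes rose and 13 were not called, with a median log2 fold change of 0.16. All 11 belonged to the beta family, importins and exportins that bind Ran directly: 11 of 18 rose there, with a median of 0.20. Among all tested genes 23.6% were called higher and 24.8% lower. Karyopherins called lower numbered 0 in edgeR, DESeq2 and limma-voom, and also at an unadjusted p under 0.05 in edgeR. The 6 tested importin alpha genes, adaptors that link a nuclear localisation signal to KPNB1, had a median of -0.044 and ranged from -0.14 to 0.010. Calls among them numbered 0 in edgeR, DESeq2 and limma-voom, 0 passed an unadjusted p of 0.05, and the wells of the groups overlapped in all 6. Of all 15387 tested genes, 7938 were not called by edgeR and 6626 had overlapping wells. The difference between the alpha and beta families was not tested.

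KPNA2 (chr17:68035735-68046854), the importin alpha linked to proliferation, was the most abundant karyopherin per gene length. It was at 278, 301 and 332 CPM in controls and 300, 294 and 323 CPM with celastrol, a log2 fold change of 0.010 ± 0.067 (adjusted p = 0.92). The control wells spread more widely than the celastrol wells and enclosed them. KPNA6, at 87.1, 103 and 106 CPM against 89.3, 88.6 and 90.1 CPM, had the most negative estimate of the family (-0.14 ± 0.075, adjusted p = 0.127), and without control well 1 it was lower with celastrol (-0.23, adjusted p = 0.00473). KPNA1, KPNA3, KPNA4 and KPNA5 had log2 fold changes of -0.092 ± 0.076, -0.015 ± 0.072, -0.032 ± 0.063 and -0.056 ± 0.17. KPNA7, an importin alpha of oocytes and early embryos, had 0 to 0.156 CPM per well.

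Of the 11 import receptors of the beta family, 6 rose: IPO4, TNPO2, IPO9, TNPO1, TNPO3 and KPNB1. The share called higher among all genes was 23.6%. IPO4 (chr14:24180219-24188816), a receptor for histones and ribosomal proteins, was at 72.2, 56.4 and 57.9 CPM in controls and 92.1, 86.3 and 94.5 CPM with celastrol (0.55 ± 0.087, adjusted p = 5.81e-05). Control well 1 lay above the other two controls and below all celastrol wells. In GENCODE v29 a readthrough transcript on the same strand covers 69.3% of the IPO4 exon bases, so the value may include reads of that transcript. TNPO2 (chr19:12699201-12723932), a transportin for RNA-binding proteins, was at 74.8, 77.7 and 72.5 CPM against 116, 104 and 108 CPM with tight groups (0.54 ± 0.068, adjusted p = 4.45e-06). Its paralog TNPO1 rose from 249.6, 239 and 242 CPM to 288, 289 and 269 CPM (0.21 ± 0.057, adjusted p = 0.0052). IPO9, which carries core histones and actin, was at 122, 121 and 108 CPM and 141, 153 and 149 CPM (0.34 ± 0.067, adjusted p = 0.000481), and its groups did not overlap.

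KPNB1 (chr17:47649919-47685505), importin beta, the receptor that works with importin alpha, was at 512, 530.2 and 515 CPM in control wells and 564, 576 and 594 CPM with celastrol. The groups were separate but close, at a log2 fold change of 0.15 ± 0.052 (adjusted p = 0.0194), and the call was lost without celastrol well 1 (0.0505) or 3 (0.114). TNPO3, which imports splicing factors, was called at 0.17 ± 0.061 (adjusted p = 0.0233) and lost the call without celastrol well 1 (0.0536), celastrol well 3 (0.125) or control well 2 (0.0573). IPO11 (0.20 ± 0.086, adjusted p = 0.0631) and IPO13 (0.20 ± 0.094, adjusted p = 0.0874) had all celastrol wells above the controls but were not called. IPO11 shares 22.6% of its exon bases with LRRC70 and KIF2A on its own strand. Without control well 1 both IPO11 and IPO13 were higher with celastrol (adjusted p = 0.00891 and 0.0294), as they were without celastrol well 2 and control well 1 together (0.0169 and 0.0311), on library size alone (0.0299 and 0.0412), on log2(FPKM + 1) (0.0442 and 0.048) and on log2(FPKM + 0.1) (0.0418 and 0.0456). IPO8 had all celastrol wells below the controls and was not called (-0.13 ± 0.069, adjusted p = 0.133), and IPO5 (0.035 ± 0.053) and IPO7 (-0.055 ± 0.054), a pair of abundant receptors for ribosomal proteins and histones, had overlapping wells.

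Of the 7 exportins, 5 rose and 2 were not called, with a median of 0.26, against 23.6% of all genes called higher. XPO1 (chr2:61477849-61538612), also known as CRM1, was at 270.1, 232 and 244 CPM in controls and 329, 328 and 283 CPM with celastrol, a log2 fold change of 0.34 ± 0.071 (adjusted p = 0.000832). Celastrol well 3 was lower than the other celastrol wells but above every control. CSE1L, which returns importin alpha to the cytoplasm, was at 312, 304 and 315 CPM against 379, 391 and 365 CPM (0.29 ± 0.055, adjusted p = 0.000331), with a gap wider than the spread of either group. XPO4, a receptor for SMAD3 and the translation factor eIF5A, was at 51.1, 53.4 and 46.4 CPM and 62.3, 63.6 and 63.2 CPM (0.33 ± 0.077, adjusted p = 0.00194). XPOT, the exportin for tRNA, was called at 0.26 ± 0.065 (adjusted p = 0.00274). XPO6, the exportin for actin, was called at 0.16 ± 0.062 (adjusted p = 0.0439) but lost the call in 6 of 16 alternatives, among them without celastrol well 1 (0.135) or 3 (0.19) and without control well 2 (0.174) or 3 (0.0941). XPO5, which exports precursors of microRNAs, had overlapping wells (-0.023 ± 0.060, adjusted p = 0.777), as did XPO7 (0.088 ± 0.064, adjusted p = 0.275).

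In the Ran cycle, RCC1 and RANBP1 rose, and RAN and RANGAP1 were not called, against 23.6% of all tested genes called higher. RCC1 (chr1:28506043-28538989), the exchange factor that loads Ran with GTP, was at 106, 103 and 99.9 CPM in controls and 150.1, 139 and 148 CPM with celastrol (0.50 ± 0.063, adjusted p = 4.39e-06). The groups were far apart in relation to their spread. RCC1 shares 6.22% of its exon bases on the same strand with the noncoding host gene SNHG3, which fell from 102 ± 14.5 to 74.8 ± 1.38 CPM (SD, n = 3; log2 fold change -0.45 ± 0.09, adjusted p = 0.000371). RANBP1, which helps free Ran from karyopherins, was at 166, 158 and 154 CPM against 201, 199.5 and 203 CPM (0.33 ± 0.059, adjusted p = 0.000154), and its celastrol wells were nearly equal. RAN (chr12:130872066-130877678) itself was at 843, 853 and 899.9 CPM and 849.9, 869 and 882 CPM, a log2 fold change of 0.003 ± 0.051 (adjusted p = 0.97), and the control wells enclosed the celastrol wells. RANGAP1, the activating protein, had a log2 fold change of 0.048 ± 0.055 (adjusted p = 0.495). RAN has 9 named pseudogenes in GENCODE v29, of 27 that belong to 11 genes of the set, and the sources used here do not say where reads common to them were placed.

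**Figure D3:**
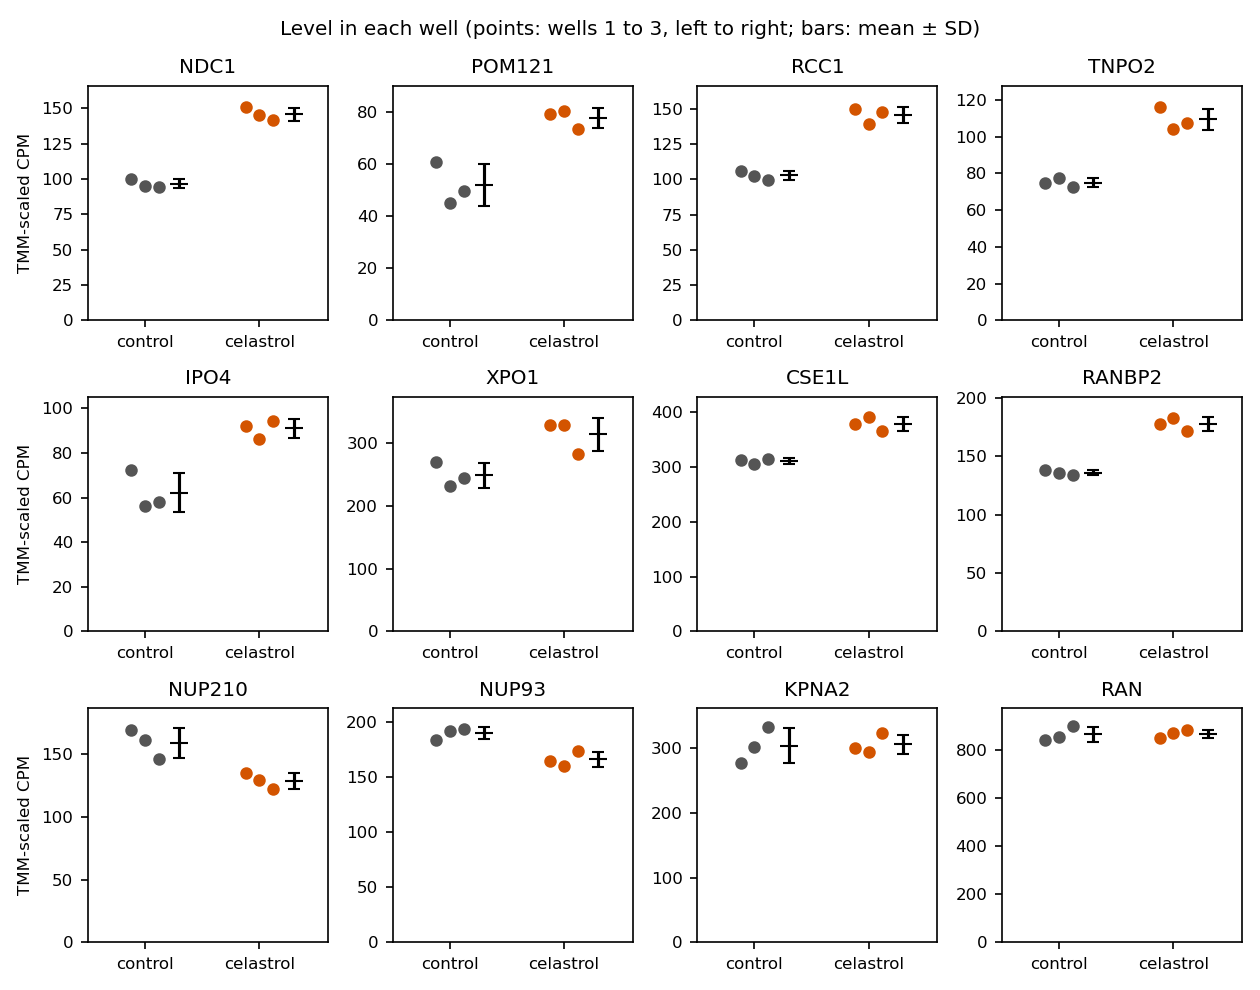
TMM-scaled CPM in each well for 12 genes; points are single wells, bars mean ± SD of 3 wells, and every axis starts at 0. Groups are separate in the higher direction from NDC1 to RANBP2 and in the lower direction for NUP210 and NUP93, and they overlap for KPNA2 and RAN.

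Per gene length, as mean FPKM in the control wells, RAN stood first among the 60 genes at 309 ± 8.53 FPKM (SD, n = 3). KPNA2 followed at 116 ± 9.68 FPKM, IPO7 at 91.1 ± 2.33, CSE1L at 82.2 ± 1.14 and KPNB1 at 80.3 ± 1.77, and the control wells of CSE1L and KPNB1 overlapped. Among pore subunits, SEC13 led at 51.5 ± 1.84 FPKM, NUP98 had 46.2 ± 3.85, RAE1 34.0 ± 3.81, NUP188 33.1 ± 0.914 and NUP153 29.6 ± 2.61, while NUP133 had 9.31 ± 0.642 and POM121 4.94 ± 0.791. In 57 of the 60 genes the control mean was at least 1 FPKM, in 7 it was at least 50 FPKM, and the median was 19.8 FPKM. Only KPNA5, NUP210L and KPNA7 were under 1 FPKM, at 0.371 ± 0.052, 0.0242 ± 0.00859 and 0.0151 ± 0.0206. Ordered by control mean, 45 of 59 neighbouring pairs had overlapping control wells, so most single steps in this order do not differ beyond the wells' spread. NUP62CL, a gene named for its likeness to NUP62 and placed in no role here, had 2.79 ± 0.503 FPKM and was not called (-0.25 ± 0.20, adjusted p = 0.304).

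**Figure D4:**
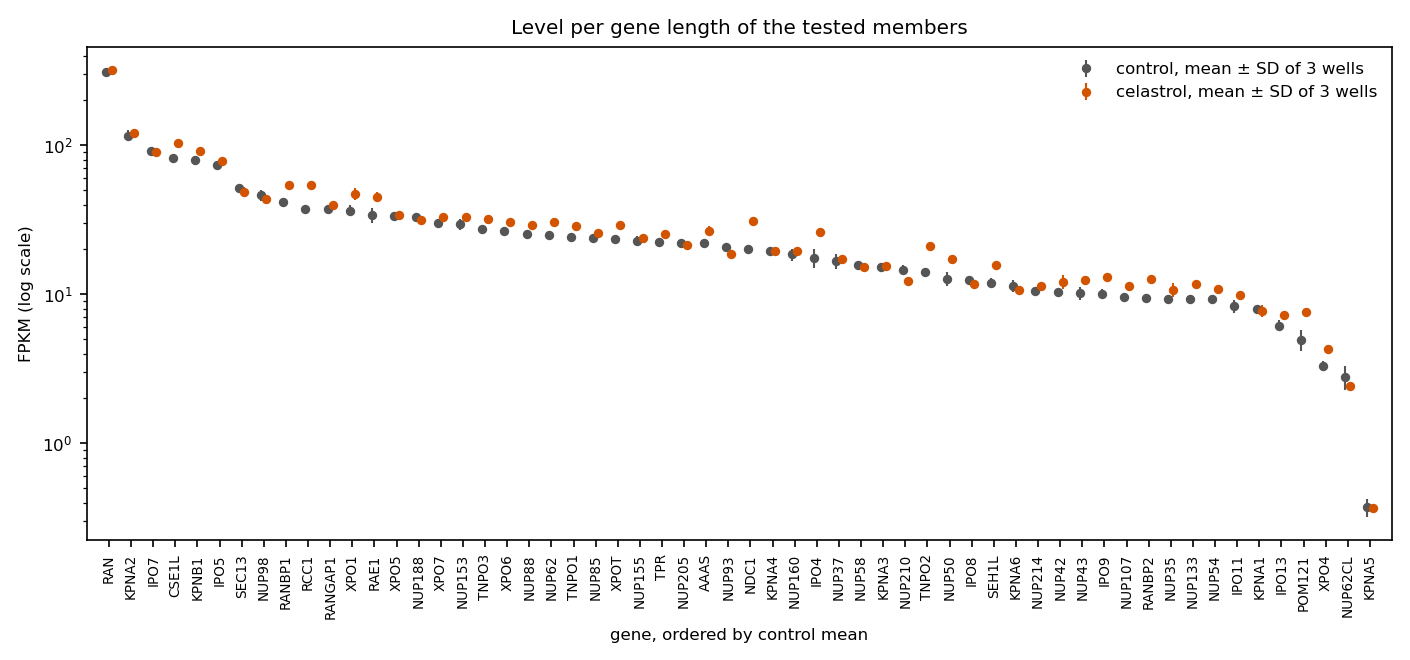
Mean FPKM ± SD of 3 wells on a log scale for the 58 tested genes, ordered by the control mean. RAN lies above 300 FPKM and KPNA5 under 1 FPKM, most genes lie close together near the median of 19.8 FPKM, and the celastrol points of NDC1, IPO4 and TNPO2 stand above their controls.

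Other genes of the same pathways were counted from 3 lists, beside 23.6% higher and 24.8% lower among all genes. Of 17 Ran-linked and pore-associated genes, 10 rose and 7 were not called, with a median log2 fold change of 0.30 and counts of 0 lower in edgeR, DESeq2 and limma-voom and at an unadjusted p under 0.05. DDX19A, an RNA helicase that remodels mRNA at the cytoplasmic face, rose from 52.2 ± 3.28 to 78.0 ± 1.96 CPM (SD, n = 3; 0.58 ± 0.074, adjusted p = 5.11e-06), and its activator GLE1 from 38.2 ± 0.803 to 49.7 ± 4.98 CPM (0.38 ± 0.087, adjusted p = 0.00156). NXT2, a cofactor of mRNA export receptors, rose from 6.65 ± 1.6 to 9.90 ± 1.11 CPM (0.57 ± 0.18, adjusted p = 0.0117), a call lost without control well 3 (0.0699). The export receptor NXF1 rose from 51.5 ± 9.13 to 63.2 ± 2.98 CPM (0.30 ± 0.10, adjusted p = 0.0231) although its wells overlapped, and the call was lost without celastrol well 1 (0.0732) or 3 (0.0958) or control well 1 (0.0712) or 2 (0.115). NUTF2, which carries RanGDP back into the nucleus, was called at 0.19 ± 0.065 (adjusted p = 0.0209) and lost the call without celastrol well 1 (0.0956), celastrol well 3 (0.0914) or control well 2 (0.0717). AHCTF1, also called ELYS, which seeds pores on chromatin, was not called (-0.088 ± 0.071, adjusted p = 0.328), but was lower without control well 1 (0.043).

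Of 16 tested genes that package mRNA or export small nuclear RNA, 8 rose, 2 fell and 6 were not called (median 0.17). The shares among all tested genes were 23.6% higher and 24.8% lower. DDX39A, a helicase of mRNA export, rose from 51.2 ± 8.34 to 89.2 ± 3.18 CPM (0.80 ± 0.094, adjusted p = 2.95e-06), and ENY2, a shared subunit of SAGA and the TREX-2 complex, from 48.2 ± 1.48 to 69.0 ± 4.51 CPM (0.52 ± 0.076, adjusted p = 2.38e-05). ALYREF, the export adaptor, rose from 138 ± 12.8 to 184 ± 6.89 CPM (0.42 ± 0.070, adjusted p = 8.88e-05). PCID2, a TREX-2 subunit like ENY2, fell from 95.4 ± 4.31 to 71.0 ± 1.54 CPM (-0.42 ± 0.068, adjusted p = 5.29e-05). The other call in that direction, THOC6 (-0.24 ± 0.092, adjusted p = 0.0386), was lost in 7 of 16 alternatives, among them without celastrol well 1 (0.123) or 3 (0.172) or control well 1 (0.0674) or 2 (0.0816).

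Of 18 genes of the lamina and envelope, 9 rose, 2 fell and 7 were not called (median 0.15). SYNE1, a nesprin of the outer membrane, rose from 15.2 ± 1.68 to 25.7 ± 2.37 CPM (0.75 ± 0.12, adjusted p = 3.7e-05). SUN2, which binds nesprins across the envelope, fell from 84.6 ± 1.52 to 55.2 ± 2.65 CPM (-0.62 ± 0.071, adjusted p = 1.63e-06), and the groups of both genes were separate. LMNB1 rose from 141 ± 14.6 to 183 ± 7.52 CPM (0.38 ± 0.072, adjusted p = 0.000337), while LMNA was not called (0.12 ± 0.066, adjusted p = 0.134). LMNA was higher without celastrol well 2 (0.0499), without celastrol well 2 and control well 1 together (0.0146) and on library size alone (0.0471). LEMD2, the second gene that fell (-0.18 ± 0.070, adjusted p = 0.0406), lost its call in 9 of 16 alternatives, among them without celastrol well 2 (0.135) or 3 (0.124) or control well 1 (0.0562) or 2 (0.0966). Over the 3 lists together 27 of 51 genes rose and 4 fell, against 23.6% and 24.8% of all genes.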

How the data were processed

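Gene-level RNA was measured by poly(A) RNA sequencing of 6 wells of 143B cells, 3 control and 3 celastrol. The submitters' processing notes name hg38 as the build and list HISAT2 2.2.1, cutadapt 1.9, StringTie 2.1.6, edgeR and DESeq2 without their roles. The annotation and the counting settings are unknown from the sources used here. The authors deposited raw read counts per gene as whole numbers, and FPKM values, which the authors scaled by gene length and library total. The length implied by a gene's count and FPKM was equal across libraries within 1e-06 in all 20198 genes checked, so FPKM was used only for levels per length and as an alternative. Library totals and the limit set by a count of 0 are given with the results.

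From the counts, filterByExpr kept 15387 genes, which were scaled by TMM and tested with edgeR's quasi-likelihood test (edgeR 4.0.16, R 4.3.3, robust, Benjamini-Hochberg over all genes). Adjusted p-values come from this test unless another setting is named. The standard error of a log2 fold change is its size divided by the square root of the F statistic. CPM values are TMM-scaled. The script was tested on simulated data. The 16 alternatives were library size alone, RLE factors, DESeq2 1.42.0, limma 3.58.1 with voom and on log2(FPKM + 1) and log2(FPKM + 0.1), no filter, at least 10 CPM in 3 libraries, the replicate number as a block, each well left out, and celastrol well 2 with control well 1 left out together.

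The genes, role lists and pathway lists were chosen with earlier results of these data known, so no p is adjusted over them alone and no list is tested as a set. Values in all wells are given for the called genes among the 3 largest changes of each role list and for KPNB1, RAN, RCC1, XPO1, CSE1L, KPNA2, NUP98, NUP62, TPR and RANBP2 whatever their result. From each pathway list the 2 called genes with the largest change and a log2 CPM of at least 2 are named. Other genes named with well values or from the pathway lists, the osteoblast and other markers apart, were chosen after their values were seen. Coordinates and promoters are from RefSeq GRCh38.p14 by NCBI gene ID, matched for 60 and 53 of the 60 genes, and exon overlaps and pseudogene names are from GENCODE v29.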

Additional observations from a re-analysis of the deposited data

How the results depend on the processing

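No pore or transport gene reversed its direction while called in any of 16 alternatives. Of the 28 called genes, 19 were called in every alternative and with each well left out, and of the 30 uncalled genes 23 were never called. The counts of 26 higher and 2 lower became 30 and 2 on library size alone, 26 and 2 with RLE factors, DESeq2 and voom, 29 and 1 on log2(FPKM + 1) and on log2(FPKM + 0.1), and 23 and 2 with no filter or with at least 10 CPM in 3 libraries. Leaving out single wells gave 19 to 27 higher and 1 to 4 lower, with 19 higher without celastrol well 1 or 3, 1 lower without celastrol well 1 or 2, and 4 lower without control well 1. Leaving out celastrol well 2 and control well 1 together gave 28 higher and 4 lower. Calls over all genes, 3634 higher and 3815 lower in the main test, moved as well. Both numbers fell with each celastrol well left out in turn, and without control well 2 or 3. Both rose without control well 1, and without celastrol well 2 and control well 1 together. What part of these shifts is particular to the pore and transport genes was not tested. In the pathway lists, 27 higher and 4 lower became 30 and 2 on library size alone and 29 and 2 on both FPKM scales, and 19 to 29 higher and 2 to 5 lower over single wells left out. The cause was not tested. Same-numbered wells of the groups correlated at 0.065, 0.091 and 0.052 in their deviations from the group means. Wells of unlike number correlated at -0.084 to 0.0079. The labels do not say that the numbers pair the wells, and whether they do was not tested. With the replicate block, 28 genes were higher and 2 lower, with TPR (adjusted p = 0.0371) and IPO11 (0.0484) the added calls, and in the pathway lists 28 and 4. KPNA7, with 0 to 6 counts per well, and NUP210L, with 0 to 10, were removed by the filter for low counts and not tested except with no filter.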

Other observations

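Noncoding genes named for their pore or karyopherin neighbours were not part of the set, and 5 were in the table. NUP133-DT, with at most 1 count in a well, was not tested. NUP93-DT, with 1 to 18 counts per well, was not called (log2 fold change -1.29 ± 0.83, adjusted p = 0.21). Without celastrol well 2, NUP93-DT was lower with celastrol (0.0401). NUP153-AS1, antisense to the basket gene NUP153, had 317, 223 and 160 counts in control wells and 502, 392 and 499 with celastrol (log2 fold change 0.94 ± 0.20, adjusted p = 0.00112), and it was called in all 16 alternatives. NUP50-DT, a transcript diverging from the NUP50 promoter, had 211, 212 and 299 counts against 129, 165 and 204 (-0.58 ± 0.21, adjusted p = 0.0274) while NUP50 itself rose, and its call was lost without celastrol well 1 (0.139), celastrol well 2 (0.0607) or control well 3 (0.167). KPNB1-DT had 50, 38 and 61 counts against 75, 108 and 73 and was not called (0.73 ± 0.32, adjusted p = 0.0682), although it passed in limma on log2(FPKM + 1) (0.0288) and on log2(FPKM + 0.1) (0.0337). These genes were chosen after their values were seen.

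RANBP2 has partial copies, the RGPD genes, of which 7 are in the table. Their counts summed to 405, 497 and 559 in control wells, which is 7.61, 9.62 and 10.8% of the RANBP2 count of the same well, and to 363, 347 and 327 with celastrol, which is 5.07, 4.79 and 4.84%. Every celastrol sum was below every control sum, whereas RANBP2 was higher. RGPD5 fell from 58, 117 and 110 counts to 25, 49 and 35 (-1.43 ± 0.36, adjusted p = 0.00343). RGPD6 was called lower as well (-2.26 ± 0.61, adjusted p = 0.00632), but control well 3 held 150 counts where the others held 33 and 26, and without that well its log2 fold change was -1.03 and it was not called (0.191). RGPD6 also missed the threshold on log2(FPKM + 1) (0.179) and on log2(FPKM + 0.1) (0.118). The other copies did not share a clear fall. RGPD3 (0.53 ± 0.49, adjusted p = 0.383), RGPD4 (0.17 ± 0.42, 0.765) and RGPD8 (-0.35 ± 0.18, 0.115) were not called and had overlapping wells. RGPD1 and RGPD2, with at most 10 and 3 counts in a well, were not tested. The sources used here do not say where reads common to RANBP2 and its copies were placed.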
